A study of Mus musculus with 10 samples.

Results

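Genes of peroxide and superoxide defence were examined in the calf muscle of mdx and normal mice: the superoxide dismutases Sod1, Sod2 and Sod3, catalase (Cat), the peroxiredoxins Prdx1, Prdx2, Prdx3, Prdx5 and Prdx6, and thioredoxin (Txn1). The members were listed by name, and every probe set whose platform annotation names a listed gene and no other was taken. That gave 10 probe sets for 7 of the 10 genes, out of 8251 genes named on the array. Prdx2 had 3 probe sets, Cat had 2, and Prdx3, Txn1, Sod1, Sod2 and Sod3 had 1 each. For Prdx1, both probe sets also name a pseudogene, Gm21399, so they were not used here, and for Prdx5 and Prdx6 no probe set was matched.

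The study hybridised gastrocnemius muscle, part of the calf, of male mice at 16 weeks of age. The control group is 5 arrays of normal mice, and the other is 5 arrays of mdx mice, which carry a mutation of the dystrophin gene in all their cells. The comparison asks how transcript levels of mdx muscle differ from normal. The labels give neither the background strain of a group nor whether each array held a different animal, so a p-value here covers only the spread from array to array, part of which may be technical.

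Muscle makes superoxide in its mitochondria and at membrane oxidases, and more of it when it contracts or is inflamed. Superoxide dismutases turn superoxide into hydrogen peroxide. Catalase, in peroxisomes, and the peroxiredoxins, in the cytosol and mitochondria, then remove the peroxide, and thioredoxin returns most oxidised peroxiredoxins to their active, reduced form. Dystrophic muscle is known for oxidative damage and for the entry of macrophages, which make superoxide themselves.

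The intensities are linear and relative to the other probe sets of the same array, since the trimmed means of the arrays were nearly equal, at 800.7 to 800.9 on 9 arrays and 723.1 on mdx replicate 1. Arrays of 1 group correlated more closely (0.961 to 0.977 within control, 0.952 to 0.977 within mdx) than arrays of different groups (0.885 to 0.910). Replicate 5 of mdx stood apart on the second principal component, which held 8.63% of the variance. Added hybridization controls were dimmer in mdx by 0.65 on the log2 scale (exact permutation p = 0.00794, two-sided, the smallest that 5 arrays against 5 can give). Scaling every array to those controls therefore raised the median log2 change of all tested probe sets from -0.033 to 0.35. The value in that scaling is given for each member, and for each other gene whose named fall it turned to a rise. RNA quality was read from actin probe sets at both ends of the transcript, whose 3' over 5' ratio was 1.13 ± 0.038 in control against 1.02 ± 0.048 in mdx (SD, n = 5, exact permutation p = 0.0159). The Gapdh ratio was 0.735 ± 0.060 against 0.732 ± 0.041 (exact permutation p = 0.921). The part of these differences in the results below was not tested. The muscle fibre genes Ckm, Tnnt3 and Acta1 were bright in both groups, which fits the labelled tissue. Their mean intensities as deposited were 20901, 56226 and 27760 in control and 14061, 38692 and 18378 in mdx. Scaled to the hybridization controls, their log2 changes were 0.084, 0.12 and 0.079 and did not pass.

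Thioredoxin rose in mdx muscle, while both intracellular superoxide dismutases, the mitochondrial peroxiredoxin and catalase fell. Of the 9 member probe sets that passed the filter on dim values, 6 were lower in mdx, 1 was higher and 2 did not pass the test (limma, Benjamini-Hochberg adjusted p below 0.05 over 7612 probe sets). Across all tested probe sets 33.6% were called, 17.8% lower and 15.8% higher. Scaled to the hybridization controls, 1 of the 9 was lower and 3 were higher, in a scaling where 1.62% of all tested probe sets were lower and 48.5% higher. The groups did not overlap for 5 of the 9 member probe sets, Sod1, Sod2, Prdx3, 1 of Cat and Txn1, against 25.1% of all tested probe sets. The probe set left out of the test, the third of Prdx2, was below 0 on all 10 arrays.

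**Figure D1:**
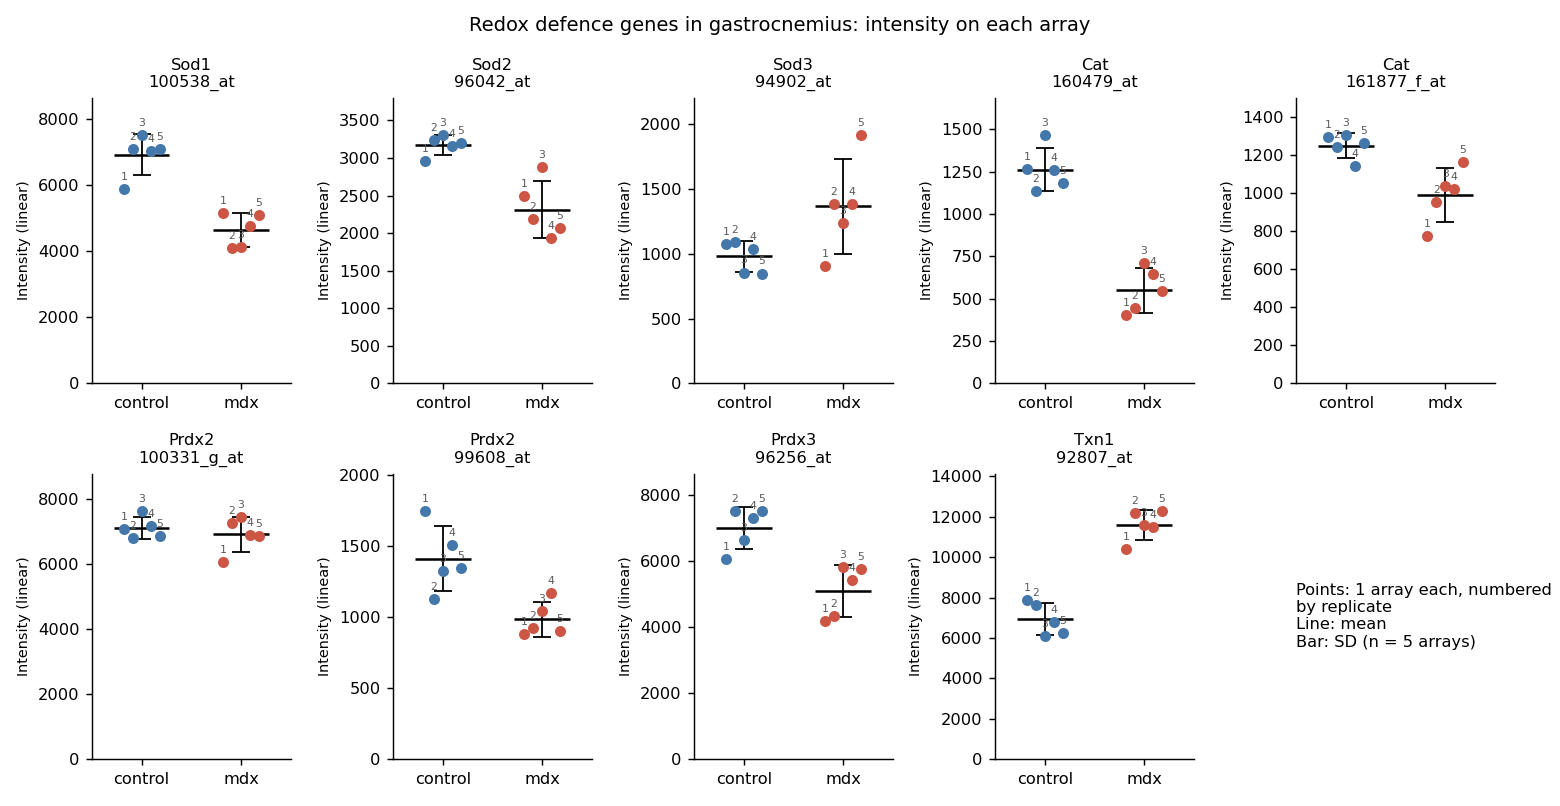
Intensity (linear scale, y axis) of the 9 tested member probe sets on each of 5 control and 5 mdx arrays; each point is 1 array numbered by its replicate, the line is the mean and the bar the SD. Txn1 is higher on every mdx array than on any control array, and Sod1, Sod2, Prdx3 and the plain Cat probe set (first Cat panel) are lower on every mdx array, as deposited; scaled to the hybridization controls, the log2 changes of Sod1, Sod2 and Prdx3 turn positive and do not pass.

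The cytosolic copper and zinc superoxide dismutase fell. Sod1, on chromosome 16, gave intensities of 5885, 7103, 7509, 7039 and 7076 on control replicates 1 to 5 and 5157, 4089, 4119, 4754 and 5083 on mdx replicates 1 to 5. Every mdx array lay below every control array, and control replicate 1 lay apart from the other 4 controls and nearest to mdx. The mean went from 6922 ± 610 to 4641 ± 513 (SD, n = 5), 67.0% of control, a log2 change of -0.54 (SE 0.089, 95% interval -0.74 to -0.35, limma adjusted p = 0.000488). Without control replicate 1, Sod1 fell by 0.60 on the log2 scale. Scaled to the hybridization controls its change was 0.067 (adjusted p = 0.645), with all probe sets at a median of 0.35.

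The mitochondrial manganese superoxide dismutase also fell. Sod2, on chromosome 17, gave 2956, 3244, 3304, 3157 and 3193 in control and 2498.5, 2184, 2882, 1932 and 2067 in mdx. The controls lay close together, with a coefficient of variation of 4.16%, while mdx varied by 16.5%, and mdx replicate 3 came nearest to the controls without overlapping them. The mean of 2313 ± 381 in mdx was 72.9% of the 3171 ± 132 in control, a log2 change of -0.41 (SE 0.094, 95% interval -0.61 to -0.21, limma adjusted p = 0.00460), which turned to 0.16 (adjusted p = 0.299) when scaled to the hybridization controls.

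The secreted dismutase did not pass the test, and its estimate was upward. Sod3, on chromosome 5, encodes the copper and zinc enzyme that is released from cells and binds to the extracellular matrix. Its intensities were 1075, 1092, 856, 1035 and 848 in control and 909, 1381, 1236, 1389 and 1917 in mdx. Of the mdx arrays, 4 lay above every control, and replicate 1 lay among the controls. The means were 981 ± 120 and 1367 ± 364 (SD, n = 5), with a log2 change of 0.34 (SE 0.13, 95% interval 0.049 to 0.63, limma adjusted p = 0.0700). The call rests on mdx replicate 1, the array with the lower trimmed mean. Without it the change was 0.44 (adjusted p = 0.0122), with equal trimmed means 0.36 (adjusted p = 0.0401), and scaled to the hybridization controls 0.83 (adjusted p = 0.000938), while without mdx replicate 5, the highest array, it was 0.24 (adjusted p = 0.144).

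Catalase fell more than any other member in the deposited scaling, by 1 of its 2 probe sets. Cat, on chromosome 2, encodes the haem enzyme of peroxisomes that splits hydrogen peroxide into water and oxygen. The plain catalase probe set, whose name carries no suffix for shared sequence, gave 1265, 1139, 1467, 1261 and 1183 in control and 402, 442, 710, 643 and 544 in mdx. The brightest mdx array was thus well below the dimmest control. The mean went from 1263 ± 126 to 548 ± 130 (SD, n = 5), 43.4% of control, a log2 change of -0.84 (SE 0.11, 95% interval -1.07 to -0.60, limma adjusted p = 6.97e-05). Of the member probe sets called lower, it was the 1 that was still called when scaled to the hybridization controls, at -0.39 (adjusted p = 0.0252).

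The other catalase probe set moved less. The f in its name marks, by the manufacturer's scheme, a family probe set, which can match several related sequences. It gave 1295, 1243, 1305, 1143 and 1261 in control and 773, 954, 1038, 1022 and 1163 in mdx, with mdx replicate 5 inside the control range. Its log2 change was -0.26 (SE 0.088, limma adjusted p = 0.0403), called in the deposited scaling but at 0.23 (adjusted p = 0.168) when scaled to the hybridization controls, and the call was lost on leaving out any of 8 of the 10 arrays (adjusted p = 0.0210 to 0.0788 over the 10). The 2 exceptions were control replicate 4 and mdx replicate 5. Within arrays, the log2 distance between both catalase probe sets went from -0.0096 ± 0.10 in control to 0.57 ± 0.16 in mdx, a difference of 0.58 (exact permutation p = 0.00794, two-sided, adjusted p = 0.0238 over 6 such differences), so that the size of the catalase fall depends on the probe set read.

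The 2-cysteine peroxiredoxin of the cytosol, Prdx2, gave different answers by probe set. Prdx2, on chromosome 8, encodes a protein that is abundant in red blood cells and is recycled by thioredoxin. Its brighter probe set gave 7064, 6794, 7635, 7169 and 6850 in control and 6074, 7251, 7457, 6887 and 6871 in mdx, and 4 of the mdx arrays lay within the control range. The log2 change was -0.040 (SE 0.071, 95% interval -0.19 to 0.11, limma adjusted p = 0.709), turning to 0.076 (adjusted p = 0.356) after quantile normalization and 0.58 (adjusted p = 0.00213) when scaled to the hybridization controls.

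The dimmer Prdx2 probe set was lower in mdx. It gave 1748, 1130, 1326, 1507 and 1346 in control and 878, 923, 1045, 1172 and 902 in mdx. Only mdx replicate 4 reached into the control range, above control replicate 2. The log2 change was -0.39 (SE 0.10, limma adjusted p = 0.0109), or 0.10 (adjusted p = 0.571) when scaled to the hybridization controls. Without mdx replicates 1 and 5 together, left out after their values had been seen, it was -0.32 (adjusted p = 0.0699). The distance between the 2 Prdx2 probe sets changed by -0.35 (exact permutation p = 0.0238, adjusted p = 0.0476), and this was lost at adjusted p = 0.0635 to 0.0952 on leaving out any of control replicates 1, 4 and 5 and mdx replicates 1, 2, 3 and 5. A lower level of Prdx2 as deposited thus rests on 1 of its 2 tested probe sets. The brighter one carries a g in its name and the dimmer one no suffix, and the part of this in their difference was not tested.

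Prdx3, the 2-cysteine peroxiredoxin of the mitochondrial matrix, fell. Its probe set on chromosome 19 gave 6071, 7508, 6626, 7315 and 7524 in control and 4196, 4324, 5808, 5411 and 5760 in mdx. The mdx arrays fell into a pair at 4196 and 4324 and 3 arrays between 5411 and 5808, all below the dimmest control. The mean went from 7009 ± 639 to 5100 ± 783 (SD, n = 5), 72.8% of control, a log2 change of -0.44 (SE 0.10, 95% interval -0.67 to -0.21, limma adjusted p = 0.00596), which turned to 0.17 (adjusted p = 0.307) when scaled to the hybridization controls.

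Thioredoxin, the small dithiol protein that reduces peroxiredoxins and many other proteins, was the member that rose. Txn1, on chromosome 4, gave 7882, 7605, 6083, 6775 and 6254 in control and 10403, 12209, 11572, 11482 and 12296 in mdx. All mdx arrays lay above all controls, and the lowest, replicate 1, was the array with the lower trimmed mean. The mean went from 6920 ± 800 to 11592 ± 759 (SD, n = 5), 168% of control, a log2 change of 0.72 (SE 0.086, 95% interval 0.53 to 0.91, limma adjusted p = 3.88e-05). It was higher under all 25 alternatives, between 0.67 and 1.34, with adjusted p from 3.23e-06 to 0.000997. By p it stood at rank 395 of the 7612 tested probe sets, before the plain probe set of Cat at rank 474 and Sod1 at 781.

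**Figure D2:**
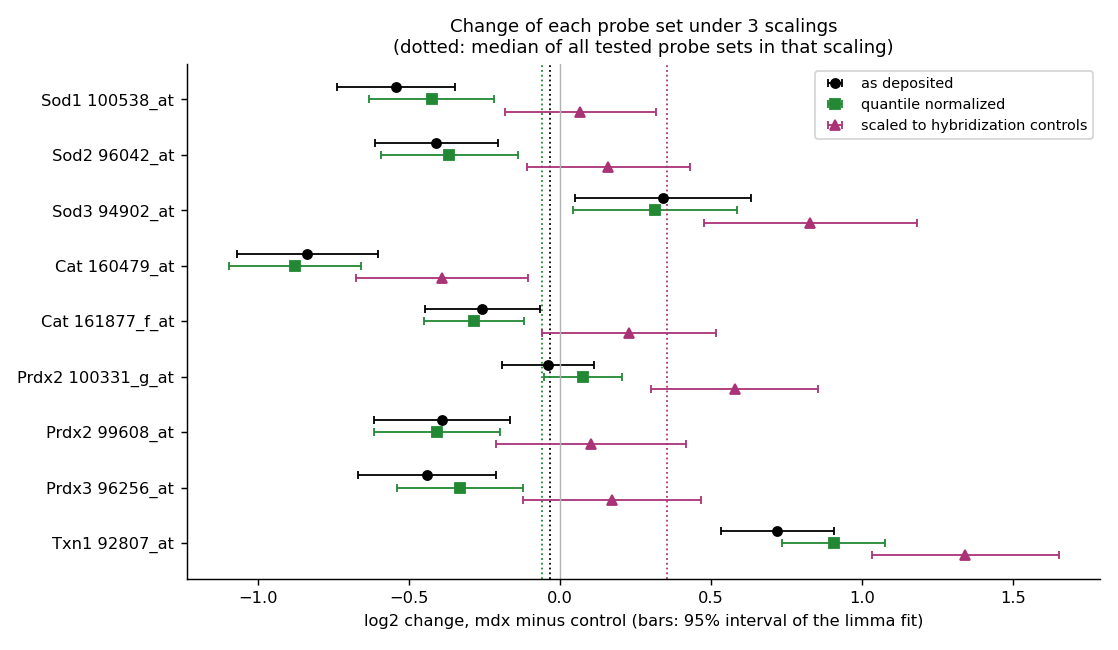
Log2 change (mdx minus control, x axis) of each member probe set with the 95% interval of the limma fit, as deposited (circles), after quantile normalization (squares) and scaled to the hybridization controls (triangles); dotted lines mark the median of all tested probe sets in each scaling. Txn1 is above 0 and the plain Cat probe set (the upper of the Cat rows) below 0 in all 3, while the intervals of Sod1, Sod2, Prdx3 and the dimmer Prdx2 probe set (the lower of the Prdx2 rows) lie below 0 as deposited and after quantile normalization and cross 0 when scaled to the hybridization controls.

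Read against the median of all probe sets in the same scaling, the signs of the changes were the same in both scalings for every member probe set but the brighter one of Prdx2, which went from -0.0069 as deposited to 0.22. Scaling to the hybridization controls multiplies each array by 1 factor before the noise level is added, so on the log2 scale it shifts bright probe sets more than dim ones. The brighter Prdx2 probe set went from -0.040 to 0.58, while the median went from -0.033 to 0.35. Taking off the median thus removes, by construction, only part of the shift of a bright probe set. Agreement of signs is therefore no separate check of direction. Differences between the scalings in these relative values, the sign of the brighter Prdx2 probe set among them, are no separate result either. Scaled to the hybridization controls, the changes relative to that median were 0.99 for Txn1, 0.47 for Sod3, -0.18 for Prdx3, -0.20 for Sod2, -0.25 for the dimmer probe set of Prdx2, -0.29 for Sod1 and -0.75 for the plain probe set of Cat. As deposited they were 0.75, 0.37, -0.41, -0.38, -0.36, -0.51 and -0.80, in the same order of genes.

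The promoters of the member that rose and of those with the largest falls are shown because these genes moved in opposite directions. The table of RefSeq promoters (GRCm38.p6) held 6 of the 7 measured genes, all but Sod3, and the 250 bases before each start site were searched on both strands, with overlapping matches counted separately, for the core of the antioxidant response element (TGACNNNGC, the site of the transcription factor Nrf2), the GC box (GGGCGG) and the CCAAT box (CCAAT). Matches are in capitals, as letters found and not as sites shown to be bound. The stretches are chr4:57956412-57956661 on the minus strand for Txn1, chr2:103485154-103485403 on the minus strand for Cat and chr16:90220512-90220761 on the plus strand for Sod1, each written 5' to 3'.
Txn1: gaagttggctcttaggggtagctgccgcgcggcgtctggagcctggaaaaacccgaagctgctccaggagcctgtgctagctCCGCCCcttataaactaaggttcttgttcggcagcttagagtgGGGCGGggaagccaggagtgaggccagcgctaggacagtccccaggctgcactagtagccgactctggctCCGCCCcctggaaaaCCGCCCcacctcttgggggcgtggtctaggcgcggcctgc
Cat: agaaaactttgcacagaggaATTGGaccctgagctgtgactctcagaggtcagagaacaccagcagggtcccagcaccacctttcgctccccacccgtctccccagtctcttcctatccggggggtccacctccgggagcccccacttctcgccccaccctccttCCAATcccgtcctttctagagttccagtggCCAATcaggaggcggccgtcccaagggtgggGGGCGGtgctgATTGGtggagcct
Sod1: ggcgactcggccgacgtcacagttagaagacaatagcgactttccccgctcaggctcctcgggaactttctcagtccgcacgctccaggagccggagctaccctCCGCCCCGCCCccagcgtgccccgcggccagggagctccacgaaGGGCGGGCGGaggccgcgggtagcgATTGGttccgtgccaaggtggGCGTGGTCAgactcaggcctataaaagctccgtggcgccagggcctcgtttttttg
Txn1 has 4 GC boxes and neither other motif, Cat has 1 GC box and 4 CCAAT boxes, and Sod1 has 4 GC boxes, 1 CCAAT box and 1 match to the antioxidant response core. Among the others, Sod2 has 4 GC boxes and 1 CCAAT box, Prdx3 has 1 GC box, and Prdx2 has none of the 3 motifs. Of all 32851 promoters in the table, 10.2% hold the antioxidant response core, 32.7% a GC box and 33.8% a CCAAT box in the same window.

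The mitochondrial members were set beside the respiratory chain genes. Of 46 tested genes of oxidative phosphorylation, 38 were lower, 1 was higher and 7 did not pass, with a median log2 change of -0.49. Over all 5767 tested genes, the background for this and the lists that follow, 18.6% were lower and 16.1% higher, with a median of -0.037. Scaled to the hybridization controls, 0 of the 46 were lower and 4 higher, with a median of 0.14, where 1.4% of all tested genes were lower and 49.7% higher, with a median of 0.36. After quantile normalization 21 were lower. The 3 with the smallest p were Ndufb5 (-0.80) and Ndufa3 (-0.73), of complex I, and cytochrome c, Cycs (-0.63), and Cox6a1 rose by 0.57. Ndufb5, Ndufa3 and Cox6a1 were read by family probe sets, which can match several related sequences. Prdx3 and Sod2 lay close to this list. The log2 distance of Prdx3 from the mean of the list on the same array was -0.74 ± 0.15 in control and -0.73 ± 0.17 in mdx, a difference of 0.0050 (exact permutation p = 0.976, adjusted p = 0.976). For Sod2 it was -1.79 ± 0.061 and -1.76 ± 0.15, a difference of 0.034 (exact permutation p = 0.651, adjusted p = 0.781). After quantile normalization these differences were -0.12 and -0.16, and neither passed.

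Catalase was set beside other peroxisome genes in the same way. Of 17 tested, 8 were lower, 0 higher and 9 did not pass, with a median of -0.30, or 0.25 scaled to the hybridization controls, where 1 was lower and 3 were higher. The division factor Pex11a fell by 0.96, the transporter Abcd3 by 0.69 and the membrane channel Pxmp2 by 0.47, the last turning to 0.098 in that scaling. The distance of the plain catalase probe set from the mean of this list went from -0.45 ± 0.084 to -0.95 ± 0.14, a difference of -0.50 with no overlap between groups (exact permutation p = 0.00794, adjusted p = 0.0238). That of the family probe set changed by 0.077 (exact permutation p = 0.468, adjusted p = 0.702).

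**Figure D3:**
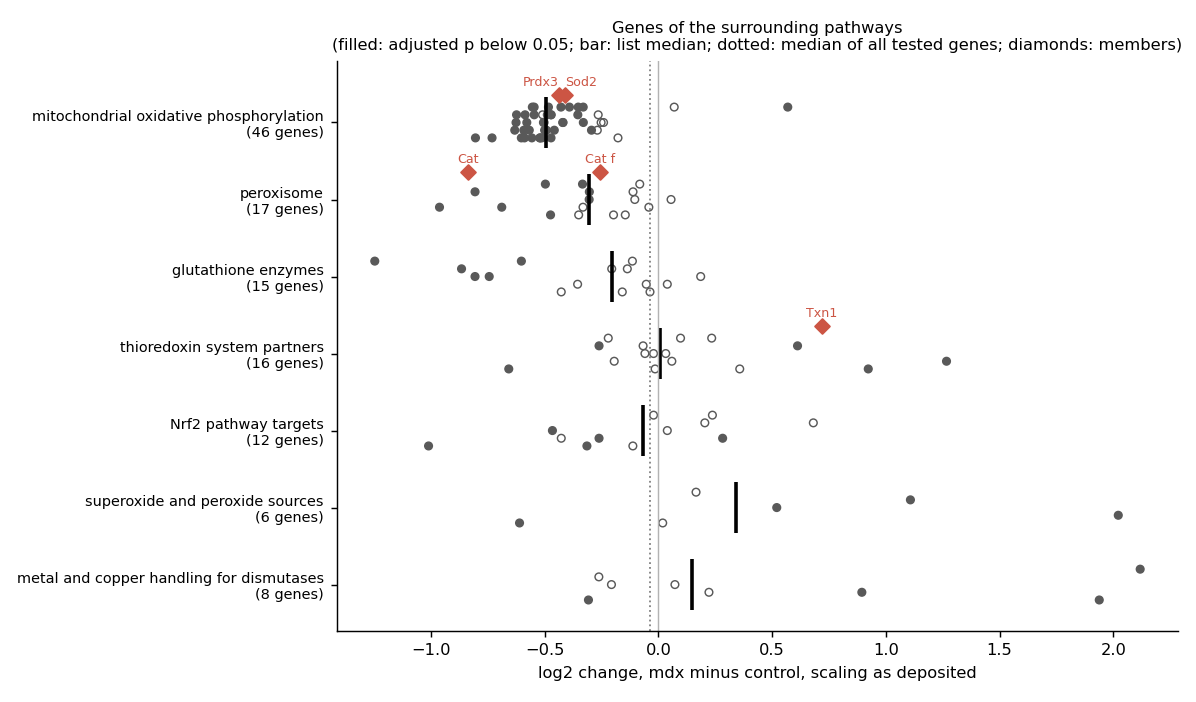
Log2 change (mdx minus control, scaling as deposited, x axis) of each tested gene in 7 lists; filled points passed at adjusted p below 0.05, bars are list medians, the dotted line is the median of all tested genes and diamonds are the members placed beside their compartment. Prdx3 and Sod2 lie near the oxidative phosphorylation median of -0.49, and the 2 catalase probe sets lie on both sides of the peroxisome median of -0.30; scaled to the hybridization controls these medians are 0.14 and 0.25.

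The partners of thioredoxin were mixed. Of 16 tested genes 3 were higher, 2 lower and 11 did not pass, with a median of 0.0086. Scaled to the hybridization controls 10 were higher and 0 lower, with a median of 0.55. Prdx4, the peroxiredoxin of the endoplasmic reticulum, went from 310 ± 92.5 to 1274 ± 231, a log2 change of 1.27 (limma adjusted p = 6.88e-06), the disulfide isomerase Pdia6 rose by 0.92 and Pdia3, a further isomerase named after its values were seen, by 0.61. The related genes Pdia4, Erp44 and Txndc12 were at 0.097, 0.36 and 0.23 and did not pass (adjusted p = 0.684, 0.200 and 0.0995). Txnip, the inhibitor that binds reduced thioredoxin, fell by 0.66 (adjusted p = 0.000172), to -0.030 scaled to the hybridization controls. Txnrd1, the reductase that regenerates thioredoxin in the cytosol, was at -0.26 (adjusted p = 0.0159), turning to 0.29 (adjusted p = 0.0637) in that scaling. Mitochondrial thioredoxin, Txn2, and sulfiredoxin, Srxn1, which repairs overoxidised peroxiredoxins, were at -0.068 (adjusted p = 0.631) and -0.022 (adjusted p = 0.952), and at 0.54 (adjusted p = 0.00292) and 0.27 (adjusted p = 0.319) with the hybridization controls. After quantile normalization Txn2 was at 0.057.

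The list of Nrf2 targets also held the gene of Nrf2 itself, and apart from that gene every called gene of the list was lower as deposited. Of 12 tested, 4 were lower, 1 was higher and 7 did not pass, with a median of -0.067, while scaled to the hybridization controls 7 were higher and 1 lower, with a median of 0.33 against 0.36 over all genes. Malic enzyme Me1 fell by 1.01, the quinone reductase Nqo1 by 0.47, Txnrd1 as above and ferritin Fth1 by 0.31, Fth1 turning to 0.14 after quantile normalization and to 0.33 with the hybridization controls. The gene that rose is Nfe2l2, which encodes Nrf2 itself, at 0.28 (adjusted p = 0.0335). That call was lost after quantile normalization (adjusted p = 0.0508), and with equal medians 0 genes of the list were higher. Of 15 glutathione enzymes tested, which remove peroxides by another route, 5 were lower, 0 higher and 10 did not pass, with a median of -0.21, while scaled to the hybridization controls 6 were higher and 1 lower, against the same 49.7% and 1.4% of all genes. Mgst3 fell by 1.25 and Mgst1 by 0.87, both membrane-bound transferases, and Gstm5 by 0.60, turning to 0.020 in that scaling. The cytosolic transferase Gstm1 fell by 0.74 and the glutathione peroxidase Gpx1 by 0.81. Gstm5 and Gstm1 were read by family probe sets.

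Of 11 sources of superoxide and peroxide with a probe set, 6 were tested, of which 3 were higher, 1 lower and 2 did not pass. Scaled to the hybridization controls 5 were higher and 0 lower, with a median of 0.77. Cyba, the membrane subunit of the phagocyte NADPH oxidase, went from 886 ± 195 to 4736 ± 759 (log2 change 2.02, limma adjusted p = 2.06e-07). Ncf4, a cytosolic subunit of that oxidase, went from -64.7 ± 131 to 485 ± 53.5. It was above the filter on fewer than 3 control arrays and so was tested only through the mdx arrays where it was bright, and without it 2 of 5 were higher. The mitochondrial amine oxidase Maoa rose by 0.52. The aldehyde oxidase Aox1 fell by 0.61, and was at -0.18 (adjusted p = 0.285) with the hybridization controls. Of 8 genes of metal handling for the dismutases, the metallothioneins Mt1, Mt2 and Mt3 rose by 2.12, 1.94 and 0.89. Mt1 went from 961 ± 248 to 5993 ± 2955 and Mt2 from 3867 ± 245 to 17616 ± 8301, with a wide spread among mdx arrays. Mt3 went from 1072 ± 642 to 2118 ± 172, with the wider spread in control. Atox1, a copper chaperone, fell by 0.31, which did not pass after quantile normalization (adjusted p = 0.101) and turned to 0.30 with the hybridization controls, where 5 of the 8 were higher and 0 lower. Ccs, the chaperone that loads copper into Sod1, was at -0.26 and did not pass (adjusted p = 0.0913), and was at 0.16 (adjusted p = 0.407) with the hybridization controls.

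Transcripts that mark other cell types differed between the groups. In pieces of whole muscle, fewer cells of a type and less RNA per cell cannot be told apart. Of 17 tested macrophage markers 16 were higher and 0 lower in mdx, and their summed intensity ran from 6335 to 10526 in control and from 76081 to 101331 in mdx. Of the defining markers, Cd68, Csf1r and Adgre1 rose by 2.12, 2.15 and 1.23, and Itgam was below the filter on every array. Adgre1, Lgals3, Cd53 and Fcer1g were above the filter on fewer than 3 control arrays, and without these 4 markers 13 of 13 were higher. Of 13 fibroblast markers 11 were higher and 2 lower, with sums of 49512 to 62131 and 100896 to 117057. Those lower were Pdgfra, at -0.27, which turned to 0.10 with the hybridization controls, and Dcn, at -0.34, which turned to 0.30 there and to 0.14 after quantile normalization.

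Red cells hold much Prdx2, Cat and Sod1 as protein, while the arrays measure transcripts. The part of red cells in the signal of these members was not tested. Red blood cell markers were in part lower as deposited. Of 8 tested, 3 were lower (Hba-a1, Bpgm and Ank1) and 0 higher, with 0 lower and 0 higher scaled to the hybridization controls. Ank1 turned to 0.25 in that scaling. Of these 3 only Hba-a1 is a defining marker. Bpgm and Ank1, the latter read by a family probe set, stood at 3113 and 12387 in control, against 270 for Alas2. How much of their signal came from red cells was not tested. The sum over the 10 with a probe set ran from 34388 to 51167 in control and from 22159 to 29165 in mdx. The alpha globin gene Hba-a1 went from 25470 ± 5268 to 12425 ± 3088, a log2 change of -1.02 as deposited and -0.39 (adjusted p = 0.111) scaled to the hybridization controls. Alas2, the haem synthesis enzyme of red cells, was at -0.24 (adjusted p = 0.246) and at 0.0079 in that scaling, and Slc4a1 was too dim to be tested.

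Of the genes of the slow and fast fibre lists, 6 of 9 and 8 of 12 were lower as deposited, and 3 and 0 scaled to the hybridization controls. Ckm and Acta1 are on the fast list, and the share of their signal from slow fibres was not tested. Higher were 2 slow fibre genes, the calcium store protein Casq2 (0.44, limma adjusted p = 0.00928) and the defining marker Tnni1 (0.35, adjusted p = 0.0490), and 0 fast ones. After quantile normalization 6 slow and 2 fast fibre genes were lower. Sod3 is a known product of smooth muscle. Of 10 smooth muscle markers, 3 were higher (Acta2, Mcam and Notch3) and 3 lower (Des, Myh11 and Mylk). With the hybridization controls Des and Mylk turned to 0.17 and 0.066. Des, not a defining marker, stood at 9153 in control against 631 for Myh11, and the share of it from smooth muscle was not tested. Of 10 endothelial markers, 1 was higher (Cd34) and 2 lower (Flt1 and Vwf). Scaled to the hybridization controls, 5 and 3 were higher and 0 lower, where 49.7% of all tested genes were higher. Of 4 adipocyte markers tested, 2 were higher, Adipoq and Cebpa, and all 4 were higher scaled to the hybridization controls. The part of any of these cell types in the change of a member was not tested.

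As a description, the genes whose log2 values over the 10 arrays followed those of Txn1 most closely were Ifi30, a lysosomal thiol reductase, Psat1, an enzyme of serine synthesis, and 2210016F16Rik (Pearson r = 0.984, 0.982 and 0.981 among 5766 genes). For the plain probe set of Cat they were Ndufb10, a complex I subunit, Atp1b1, a sodium pump subunit, and Nnt, the mitochondrial transhydrogenase that makes NADPH (r = 0.995, 0.993 and 0.979). Atp1b1 was read by a family probe set. Ifi30 and Psat1 had mean intensities of 68.5 and 108 in control, below the filter of 134.3, and 1149 and 642 in mdx. They were thus tested through the mdx arrays where they were bright. The correlations are dominated by the distance between the groups, with r above 0.9 for 351 and 253 genes.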

How the data were processed

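The authors deposited 1 linear intensity per probe set and array, and 27483 of these lie below 0. The array software, background correction and scaling are not given in the sources used here. The 66 control probe sets of 12488 were left out. Testing required a value above 134.3 (the 40th percentile) on 5 or more of the 10 arrays, whatever their group, which left 7612. After raising values below 0 to 0, the scale used was log2(intensity + 373.2), where 373.2, the noise level, is the root mean square of the values below 0. A fold change on this scale understates that of dim genes. A lower noise level of 156.8, from their median size, was tried after the data were seen. The test was limma 3.58.1 under R 4.3.3 (lmFit, then eBayes fitting a variance trend), two-sided. Its p-values were adjusted by Benjamini-Hochberg over the 7612, and the fit was tested on simulated data. A log2 change gives mdx relative to control, and SE is the fit's standard error. Probe sets were named through the platform annotation, with symbols looked up by gene number in the reference of GRCm38.p6, and those of 1 gene are not replicates. In the gene lists the brightest tested probe set stands for a gene, whatever the suffix of its name, and members were left out. Named were all member probe sets, the 3 genes with the smallest p of each list where needed beside a member, the defining markers, and the 3 genes most correlated with the largest rise and fall. Further genes of these lists (Pdia3, Pdia4, Erp44, Txndc12, Cox6a1, Gstm1, Gpx1, Aox1, Txnrd1, Txn2, Srxn1, Fth1, Nfe2l2, Atox1, Ccs and other markers) were chosen after their values were seen, for their role or to complete a count. The members and lists were chosen with earlier results of these data known. Alternatives were other scalings, pseudocounts, filters, variance models, array weights and leaving out arrays. Replicate numbers are shared by the groups but did not pair the arrays, with correlations of deviations between same-numbered arrays of -0.16 to 0.044. The number of arrays limits the precision.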

Additional observations from a re-analysis of the deposited data

Results flagged for a closer look

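For Sod1, control replicate 1, at an intensity of 5885, lay apart from the other 4 control arrays, which ran from 7039 to 7509. Its gap to the nearest of them was 0.734 of the group's range on the log2 scale, above the critical value of 0.71. Of 18 groups of 5 arrays examined in this way 1 stood out, and chance gives about 1 in 20.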

How the results depend on the processing

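Txn1 and the plain probe set of Cat kept their direction and their call under all 25 alternatives, at 0.67 to 1.34 and -1.10 to -0.39. Sod1, Sod2 and Prdx3 did so under 24, all but scaling to the hybridization controls. There 1 of the 9 member probe sets was lower and 3 were higher, where 1.62% and 48.5% of all tested probe sets were. Of the pathway lists 42 genes were called, against 69 as deposited, where 49.7% of all tested genes were higher and 1.4% lower in that scaling. Values reversed there to 0.067 for Sod1, 0.16 for Sod2, 0.17 for Prdx3 and 0.23 for the family probe set of Cat. Those of the dimmer and brighter probe sets of Prdx2 reversed to 0.10 and 0.58. The mean log2 level also reversed for the lists of glutathione enzymes (0.13), peroxisome (0.15), oxidative phosphorylation (0.15) and red blood cell genes (0.089). So did that of the endothelial (0.29) and fast fibre lists (0.079), and the uncalled one of Nrf2 targets (-0.098, to 0.32). Sod3 joined Txn1 as a rise, giving 2, with equal trimmed means and without mdx replicates 1 and 5; over leaving out single arrays the count of rises ran from 1 to 2, and it was 2 without mdx replicate 1. The uncalled change of the brighter Prdx2 probe set reversed to 0.076 after quantile normalization and 0.019 without mdx replicates 1 and 5, and ran from -0.067 to 0.0031 over leaving out single arrays. The uncalled distances of Prdx3 and Sod2 from the oxidative phosphorylation genes reversed to -0.12 and -0.16 after quantile normalization, and ran from -0.046 to 0.054 and from -0.014 to 0.079 over leaving out single arrays. The cause of these changes was not tested, other than that the controls themselves were dimmer in mdx. With the replicate number as a block, the family probe set of Cat was not called (adjusted p = 0.0888) and no other member call changed, with 2238 of all probe sets called against 2554. With the lower noise level the plain probe set of Cat stood at -1.03 and no member call changed.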
